A study of Mus musculus with 4 samples.

Results

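The genes examined here drive or restrain the passage of a cell out of G1. They are the D-type cyclins Ccnd1, Ccnd2 and Ccnd3, the E-type cyclin Ccne1, the cyclin-dependent kinases Cdk2, Cdk4 and Cdk6, the inhibitors Cdkn1b (p27Kip1) and Cdkn2a (p16Ink4a and p19Arf), and their common substrate, the retinoblastoma gene Rb1. They were chosen by name, as every feature of the array whose accession belongs to one of these symbols in mouse RefSeq. This gave 10 genes of 20832 with a matched feature, read by 15 probes in 24 spots on each array.

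RNA came from B16-F10, a mouse malignant melanoma line, whose cells were stained for the receptor tyrosine kinase Met at their surface and sorted into a Met-low and a Met-high population. Both populations were then grown separately for 3 days in the same medium, before the RNA was taken. Each population was measured on 2 one-colour (Cy3) Agilent arrays, from separately prepared RNA. No other treatment, genotype or age is given for either population, and each stands for cells of this one line.

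D-type cyclins rise with mitogen signals and assemble with Cdk4 or Cdk6, and these kinases begin the phosphorylation of Rb1. Cyclin E with Cdk2 completes it, E2F factors are released, and the genes of DNA replication are transcribed. The p16Ink4a product of Cdkn2a blocks Cdk4 and Cdk6, p27Kip1 blocks cyclin E-Cdk2, and loss of the p16Ink4a arm is a frequent lesion of melanoma.

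Values below are log2 signals, meaning the log2 of the background-corrected spot intensity minus the log2 of the 75th percentile of that array, so that 1 unit is a 2-fold difference and 0 is the 75th percentile. A log2 difference is the Met-high mean minus the Met-low mean, n = 2 arrays each. The 75th percentile intensity lay between 858 and 1331, between 50.01% and 53.63% of spots were well above background, and 0 spots were saturated. All 4 arrays lay on one slide, with Met-low in the first positions and Met-high in the last, and the effects of place on the slide and of population cannot be told apart. Each of 8 melanocyte lineage markers was well above background on every array, while the leukocyte marker Ptprc, the endothelial markers Cdh5 and Tek and the fibroblast markers Dcn and Pdgfra were well above background on none. Of these lists 2 of 5 leukocyte markers were above background on both Met-low arrays and 2 on both Met-high arrays, and 1 endothelial and 1 keratinocyte marker on both Met-high arrays, though not on both Met-low arrays. In linear units relative to the 75th percentile, the summed level was 1400 to 1700 in Met-low and 1500 to 1710 in Met-high for the melanocyte list, 3.65 to 4.41 and 3.12 to 3.92 for 5 leukocyte markers, 0.0549 to 0.0756 and 0.0555 to 0.082 for 3 endothelial markers, 0.0752 to 0.111 and 0.0431 to 0.105 for 4 fibroblast markers, and 0.108 to 0.198 and 0.0988 to 0.118 for 3 keratinocyte markers.

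On the arrays, the mRNA of the sorted gene did not fully separate the populations after culture. The sort was on Met protein at the cell surface, which is a different measure. By quantitative RT-PCR on cells cultured after sorting, the paper reports a far higher Met mRNA level in its Met-high population. Why the arrays and RT-PCR differ was not tested. Met had log2 signals of -0.26 and -0.89 in Met-low and of 1.03 and -0.43 in Met-high. The array labelled Met-high replicate 2 fell between both Met-low arrays, and the log2 difference of 0.87 (SE 0.51) had an adjusted p of 0.333 by limma with Benjamini-Hochberg adjustment over 11958 genes. Without that array 0 members were called in either direction.

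None of the G1 genes passed an adjusted p of 0.05 in either direction. The nearest was Ccnd2, which was 2.42-fold higher on average in Met-low. The other tested members differed by 1.16-fold to 1.55-fold. Of the 10 genes, 8 were well above background on all 4 arrays and were tested, whereas Cdk6 and Cdkn2a were too dim. By limma with Benjamini-Hochberg adjustment, 0 of 8 were called higher in Met-high and 0 of 8 higher in Met-low, against 1.95% and 3.82% of the 11958 genes tested. At an unadjusted p under 0.05, limma counted 1 member higher in Met-high (Cdk2) and 1 higher in Met-low (Ccnd2), beside 14.3% and 11.9% of all genes tested. The methods' t-test, unadjusted, counted 1 (Ccnd3) higher in Met-high and 0 higher in Met-low, beside 10.6% and 7.9%. By sign alone 5 of 8 had higher means in Met-high, as did 59.5% of all genes tested. The arrays of both populations did not overlap for any of the 8, with 5 higher in Met-high and 3 higher in Met-low, while 35.8% and 22.6% of all genes tested did not overlap in these directions. By size alone, 0 members were over 2-fold higher in Met-high, where 2.43% of genes were, and 1, Ccnd2, was over 2-fold higher in Met-low, where 5.29% were. The median log2 difference of the 8 members was 0.28, beside 0.10 over all genes tested. The gap between those medians, 0.18 here, was 0.05 after quantile normalization and lay between 0.05 and 0.22 over the scalings and with each array left out.

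**Figure D1:**
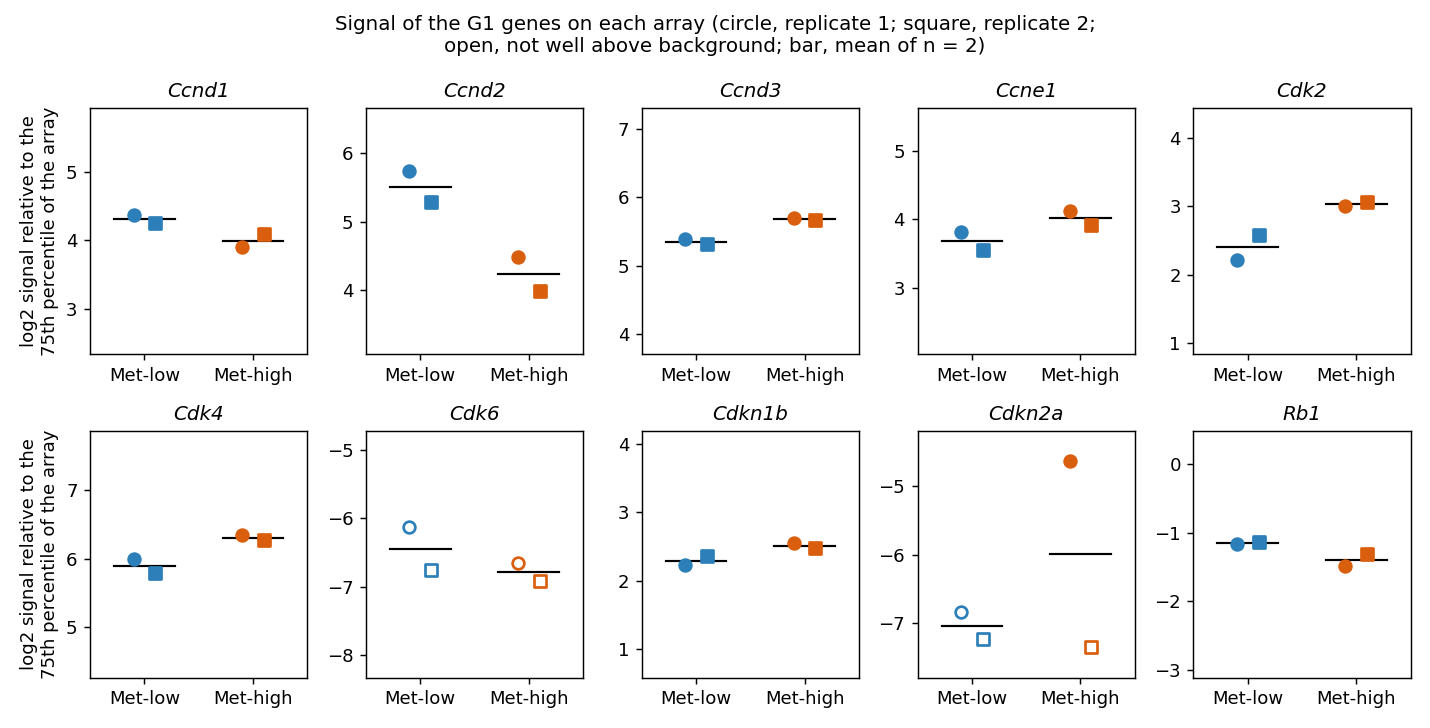
Log2 signal relative to the array's 75th percentile for each of the 10 genes (vertical axes span the same number of log2 units in every panel), with Met-low arrays in blue and Met-high arrays in orange, circles for replicate 1, squares for replicate 2, open symbols where the spot was not well above background, and bars at the mean of 2 arrays. Among the 8 tested genes Ccnd2 shows the widest gap between populations, at 5.74 and 5.28 against 4.48 and 3.99, and the Cdk6 symbols are all open.

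Among the D-type cyclins, Ccnd2 and Ccnd1 had lower means in Met-high and Ccnd3 a higher mean. Ccnd2 (NM_009829) had log2 signals of 5.74 and 5.28 in Met-low and of 4.48 and 3.99 in Met-high, from spot intensities of 50356 and 51857 against 19177 and 17648. Both Met-high arrays lay below both Met-low arrays, by more than the gap between arrays of the same population. The log2 difference was -1.28 (SE 0.26, 95% confidence interval -1.92 to -0.63), or -1.37 relative to the median of all genes, with an unadjusted p of 0.00353 and an adjusted p of 0.0558 by limma. The adjusted p lay between 0.00609 and 0.218 over the limma alternatives, and was 0.29 by the methods' t-test after Benjamini-Hochberg adjustment over all genes. It passed 0.05 without Met-low replicate 2 (log2 difference -1.50, adjusted p 0.0251 by limma) and without Met-high replicate 1 (-1.52, 0.0158), and it did not without Met-low replicate 1 (-1.05, 0.104) or without Met-high replicate 2 (-1.03, 0.0862).

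Ccnd1 (NM_007631), the cyclin D most often amplified in cancer, had log2 signals of 4.38 and 4.25 in Met-low and of 3.90 and 4.09 in Met-high. The populations did not overlap, but the Met-low replicate 2 and Met-high replicate 2 arrays were closer to each other than the Met-high arrays were among themselves. Its log2 difference of -0.32 (SE 0.17, 95% interval -0.74 to 0.11) had an adjusted p of 0.293 by limma.

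Ccnd3 had a probe for each of 2 transcript records. The brighter one (NM_001081636) had log2 signals of 5.39 and 5.32 in Met-low and of 5.70 and 5.67 in Met-high, with a log2 difference of 0.33 (SE 0.15, 95% interval -0.05 to 0.72) and an adjusted p of 0.24 by limma. The other (NM_007632) had 4.26 and 4.30 against 4.50 and 4.84, a log2 difference of 0.39. The probes of Ccnd3 thus had the same direction, without overlap of the populations in either.

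The differences between the D-type cyclins can be set against each other within an array, where the scaling of the array cancels. Ccnd2 minus Ccnd1, set to a mean of 0 in Met-low, was 0.16 and -0.16 there and -0.62 and -1.30 in Met-high, a change of -0.96 on the log2 scale. Ccnd2 minus Ccnd3 was 0.20 and -0.20 in Met-low and -1.38 and -1.84 in Met-high, a change of -1.61. In both pairs, which share Ccnd2, the populations did not overlap. The share of all gene pairs without overlap was not computed. For single genes it was 35.8% with Met-high above and 22.6% with Met-low above. No test of these pairs is given, since an exact permutation of 4 arrays cannot reach a two-sided p below 0.333.

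**Figure D2:**
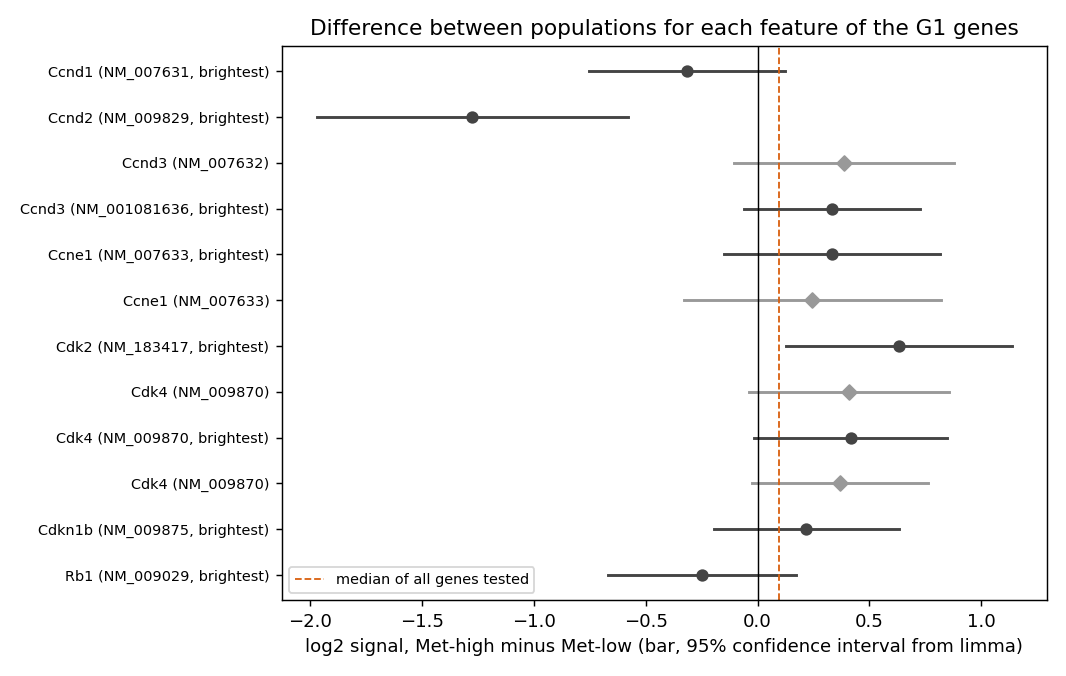
Log2 signal in Met-high minus Met-low for every probe of the tested genes, with 95% confidence intervals from limma fitted to each probe by itself; circles are the brightest probe of a gene, diamonds the others, and the dashed line the median of all genes, 0.10. The intervals of Ccnd2 and Cdk2 leave out 0, and probes of the same gene lie side by side.

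The kinase partners that could be read had higher means in Met-high. Cdk4 (NM_009870), the partner of the D-type cyclins, had log2 signals of 5.99 and 5.79 in Met-low and of 6.34 and 6.27 in Met-high on its brightest probe. Its log2 difference was 0.42 (SE 0.17, 95% interval -0.0002 to 0.83), with an adjusted p of 0.191 by limma. The other probes gave log2 differences of 0.41 and 0.37, and on all 3 probes both Met-high arrays lay above both Met-low arrays. Probes of one gene read the same RNA and are not replicates.

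Cdk2 (NM_183417), the partner of cyclin E, had log2 signals of 2.22 and 2.58 in Met-low and of 3.00 and 3.07 in Met-high. Its Met-high arrays lay close together and above both Met-low arrays. The log2 difference of 0.63 (SE 0.19, 95% interval 0.15 to 1.11), a 1.55-fold higher mean in Met-high and 0.54 relative to the median of all genes, had an unadjusted p of 0.019 and an adjusted p of 0.121 by limma. Without Met-high replicate 2 the log2 difference was 0.60, with an adjusted p of 0.294 by limma.

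Ccne1 (NM_007633) had log2 signals of 3.82 and 3.55 in Met-low and of 4.12 and 3.92 in Met-high on its brighter probe. The gap between the higher Met-low array and the lower Met-high array was smaller than the spread within either population, and the log2 difference of 0.33 (SE 0.18, 95% interval -0.13 to 0.80) had an adjusted p of 0.307 by limma. The dimmer probe had -0.99 and -1.32 against -0.72 and -1.09, a log2 difference of 0.25 with overlapping populations. Ccne1 minus Cdk2 within an array changed by -0.30 on the log2 scale, with overlap.

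Cdk6 (NM_009873), the other partner of the D-type cyclins, was not well above background on any array, at intensities of 13.4 and 12.3 in Met-low and of 8.55 and 9.17 in Met-high. No fold is given for it. Its level and any difference were not detectable with this probe.

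The RefSeq promoter table held windows for 7 of the 10 genes (Ccnd3, Ccne1, Cdk2, Cdk4, Cdk6, Cdkn1b and Cdkn2a), and they were searched on both strands for motifs of factors that act at G1. The motifs were the E-box CACGTG, which Myc and Mitf family factors bind, and the E2F forms TTTCCCGC, TTTCGCGC, TTTGCCGC and TTTGGCGC. The palindromic E-box reads the same on both strands, and none of the E2F forms contains it. Within the 250 bases before the start, Cdk4 held 4 E-boxes, at -172, -118, -98 and -11, counting from the first base of the motif. An E-box was in 6.02% of 32851 promoter windows, and 4 or more were in 0.0213%, or 7 windows. Cdk2 held the E2F form TTTCCCGC on its opposite strand, with its first base at -140, and 1.86% of windows held any of the E2F forms. The other matches were an E-box of Cdk6 at -220 and TTTCCCGC of Cdkn2a at -99. Cdk4 and Cdk2 are shown, as the kinases with higher means in Met-high, with the motifs in capitals, 5′ to 3′ on the strand of the gene, in the build GRCm38.p6. A match says only that these letters are present.

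Cdk4, chr10:127063285-127063534, plus strand, with E-boxes in capitals, is printed first, and Cdk2, chr10:128705052-128705301, minus strand, with the E2F form in capitals, second.
Cdk4: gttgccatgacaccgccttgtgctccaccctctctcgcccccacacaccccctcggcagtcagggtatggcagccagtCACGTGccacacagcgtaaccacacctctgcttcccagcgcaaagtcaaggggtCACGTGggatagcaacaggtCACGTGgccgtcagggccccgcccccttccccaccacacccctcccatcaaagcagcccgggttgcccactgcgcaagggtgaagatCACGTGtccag
Cdk2: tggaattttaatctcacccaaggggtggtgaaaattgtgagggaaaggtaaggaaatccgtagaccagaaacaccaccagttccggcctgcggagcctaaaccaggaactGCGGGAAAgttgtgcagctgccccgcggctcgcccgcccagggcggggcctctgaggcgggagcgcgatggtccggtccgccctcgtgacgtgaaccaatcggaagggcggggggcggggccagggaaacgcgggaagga

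The inhibitors differed in whether they could be read at all. Cdkn1b (NM_009875) had log2 signals of 2.22 and 2.36 in Met-low and of 2.54 and 2.47 in Met-high. The populations did not overlap, although the gap between their nearest arrays was within the spread of the Met-low arrays, and the log2 difference of 0.22 (SE 0.16, 95% interval -0.18 to 0.62) had an adjusted p of 0.425 by limma. Relative to the kinase it inhibits, Cdkn1b minus Cdk2 was taken within an array, with the Met-low mean at 0. It was 0.11 and -0.11 in Met-low and -0.35 and -0.48 in Met-high, a change of -0.41 without overlap. The share of all gene pairs without overlap was not computed. Cdkn1b minus Cdk4 was -0.17 and 0.17 in Met-low and -0.20 and -0.20 in Met-high, a change of -0.20 that was smaller than the spread between the Met-low arrays (SD 0.24).

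Cdkn2a (NM_009877) was read by a pair of probes, both at or near the background. One was well above background on no array, at intensities of 10.1, 10.6, 7.39 and 8.48 in the order Met-low 1, Met-low 2, Met-high 1 and Met-high 2. The other had intensities of 8.21, 8.84, 34.5 and 6.80 in the same order and was above background only on Met-high replicate 1. The probes disagreed on that array, and the gene was not tested. Cdkn2b (NM_007670), which encodes the related inhibitor p15Ink4b, had intensities of 8.83, 9.95, 265 and 7.43 in that order, and was likewise above background on that array alone. Any part of Met-high replicate 1 in these values was not tested.

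Rb1 (NM_009029) was printed in 10 spots on each array, which shows the reading error of the array beside the spread of the samples. The mean log2 signals were -1.16 and -1.14 in Met-low and -1.49 and -1.31 in Met-high. The SD between the 10 spots was 0.051 to 0.071 on an array, less than the gap between the Met-high arrays and more than that between the Met-low arrays. The populations did not overlap, and the log2 difference of -0.25 (SE 0.16, 95% interval -0.66 to 0.16) had an adjusted p of 0.378 by limma. The spots of one array share its RNA and count as 1 measurement.

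**Figure D3:**
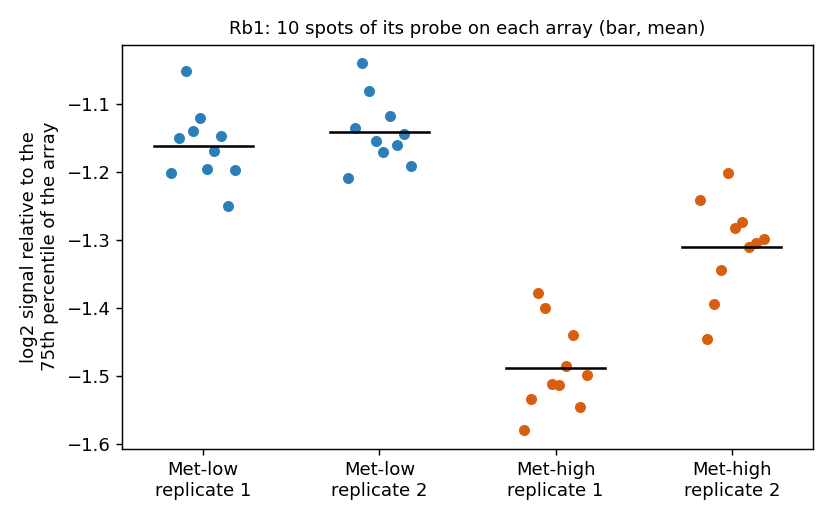
Log2 signal relative to the array's 75th percentile for the 10 spots of Rb1 on each array (Met-low blue, Met-high orange; bar, mean of the spots, n = 10). The array means are -1.16, -1.14, -1.49 and -1.31. The SD of the spots on an array, at most 0.071, is smaller than the gap between the Met-high arrays. On every array it is larger than the gap between the Met-low arrays.

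When each of the probes was fitted by itself, over 19796 probes, 0 of the 12 tested probes of these genes passed in either direction by limma with Benjamini-Hochberg adjustment, against 0.556% of all probes higher in Met-high and 2.07% higher in Met-low. The adjusted p of the Ccnd2 probe was 0.092 in that fit. The direction of no member turned under any of 17 alternative settings, though many of them could not turn it. Those that change only the filter, the flags or the test leave the log2 difference as it is. Leaving out an array cannot reverse populations without overlap. Only another scaling, background correction, the mean of a gene's probes or the authors' processed values could change a direction. Scaling to the 75th percentile of detected probes moved the median of all genes from 0.10 to -0.05 on the log2 scale, and members' differences are best read relative to that median. Less mRNA in each cell and fewer cells in a given phase of the cycle cannot be told apart in such bulk RNA.

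The rest of the G1/S pathway was described with 6 lists of 81 genes, of which 80 had a matched probe (Skp2 had none) and 73 were tested. Across them, 56 had higher means in Met-high and 17 in Met-low, 7 were called higher in Met-high and 3 higher in Met-low by limma with Benjamini-Hochberg adjustment over all genes, and the median log2 difference was 0.40. The shares of all genes tested were 59.5% with higher means in Met-high, and 1.95% and 3.82% called. At an unadjusted p under 0.05 the counts were 33 and 5, beside 14.3% and 11.9% of all genes. The arrays of 48 genes did not overlap with Met-high above, and those of 8 with Met-low above, beside 35.8% and 22.6% of all genes. Without Met-high replicate 2, the array with the low Met signal, 1 list gene was called higher in Met-high and 1 higher in Met-low.

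Genes that E2F switches on at the start of DNA replication had the highest median. Of 17 such genes, all tested, 16 had higher means in Met-high, 3 were called higher there and 1 was called lower. The median log2 difference was 0.67, or 0.57 above that of all genes, and between 0.48 and 0.62 above it under other scalings and with each array left out. Mcm5, a subunit of the replicative helicase, rose by a log2 difference of 1.01 (SE 0.18, adjusted p 0.0415 by limma). Mcm7 of the same helicase rose by 0.84 (SE 0.15, adjusted p 0.0445) and Cdc6, which loads it, by 0.90 (SE 0.16, adjusted p 0.041). The second probe of Cdc6 gave 0.66. Each of these 3 calls was lost with 3 or 4 of the arrays left out in turn, with adjusted p up to 0.188 for Mcm5, 0.205 for Mcm7 and 0.188 for Cdc6 over the limma alternatives. With each array left out, 0 or 1 of the list was called higher in Met-high and 0 or 1 lower, and with the scaling to detected probes 15 of 17 had higher means in Met-high, 0 were called higher and 1 lower.

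The other cyclins and kinases had a median of 0.58 over 11 tested genes of 13, with 8 higher in mean in Met-high. Wee1, the kinase that places inhibitory phosphate on Cdk1 and Cdk2, was the one called, with a log2 difference of 0.89 (SE 0.15, adjusted p 0.0383 by limma). Of the pocket proteins, E2F factors and their partners, 13 of 17 had higher means in Met-high, with a median of 0.37, and 2 were called higher. These were Tfdp2, a dimer partner of E2F (log2 difference 1.14, SE 0.15, adjusted p 0.0222 by limma), whose second probe gave 0.52, and Mybl2. Mybl2, itself a late G1 transcription factor, differed by 0.92 (SE 0.17, adjusted p 0.0447 by limma), and its second probe gave 0.62. None of the calls of Wee1, Tfdp2 and Mybl2 stood without the filter on dim probes. With the mean of a gene's probes those of Tfdp2 and Mybl2 were lost, and with the percentile over detected probes those of Wee1 and Mybl2. That of Mybl2 was also lost after quantile normalization. The call of Wee1 was lost with any of the 4 arrays left out, that of Mybl2 with 3 of them and that of Tfdp2 with 1, Met-low replicate 1.

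Other inhibitors of cyclin-dependent kinases moved in both directions. Cdkn1a, which encodes p21Cip1, had log2 signals of 3.997 and 3.77 in Met-low and of 2.19 and 2.50 in Met-high. It was lower in Met-high without overlap, by a log2 difference of -1.54 (SE 0.19, a 2.90-fold higher mean in Met-low, adjusted p 0.0183 by limma), with its second probe at -2.73. It stayed past 0.05 with any of the arrays left out, and did not pass with limma and no filter on dim probes (adjusted p 0.109) or with the methods' t-test after adjustment (0.214), and its second probe had an adjusted p of 0.0932 in the limma fit of every probe. Cdkn2c, which encodes p18Ink4c, an inhibitor of Cdk4 and Cdk6, had log2 signals of 0.32 and 0.09 in Met-low and of 1.27 and 1.18 in Met-high. It was higher in Met-high without overlap, by a log2 difference of 1.02 (SE 0.17, 2.03-fold, adjusted p 0.0361), and its call was lost with each of the 4 arrays left out. Of the 5 genes of this list 4 were tested, 3 had higher means in Met-high, and the median was 0.34.

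Of the genes that degrade G1 cyclins and p27Kip1, 14 were tested, 9 had higher means in Met-high, and the median was 0.14, which became 7 and -0.0047 with the percentile over detected probes. Fbxw7, the F-box protein that marks cyclin E for degradation, was the one called, with a log2 difference of -0.96 (SE 0.16, adjusted p 0.0363 by limma) and -0.87 on its second probe, a call lost with each of the 4 arrays left out. Of the transcriptional regulators of the G1 genes, 10 of 14 were tested, 7 had higher means in Met-high, and none was called, with a median of 0.10. With the percentile over detected probes 4 of 10 had higher means in Met-high and the median was -0.05, and after quantile normalization 5 of 10 did, with 0.01. At an unadjusted p under 0.05, limma counted 1 of them higher in Met-high (Foxm1, a regulator of later cell cycle genes, named after its value was seen) and 1 higher in Met-low (Jun). The shares of all genes tested at that threshold were 14.3% and 11.9%. The widest differences were those of Dmtf1, a regulator of the Arf transcript (-1.25, SE 0.56, adjusted p 0.234 by limma, not well above background on 1 Met-high array), and Jun, a subunit of AP-1 (-0.91, SE 0.21, adjusted p 0.0765). Without Met-high replicate 2 the log2 difference of Dmtf1 was -0.44 and smaller than that of Jun at -0.67. Without Met-high replicate 1 they were -2.07 and -1.14. That value of Dmtf1 rests on Met-high replicate 2 alone, its dimmer Met-high array, at an intensity of 34.6 against 83.

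**Figure D4:**
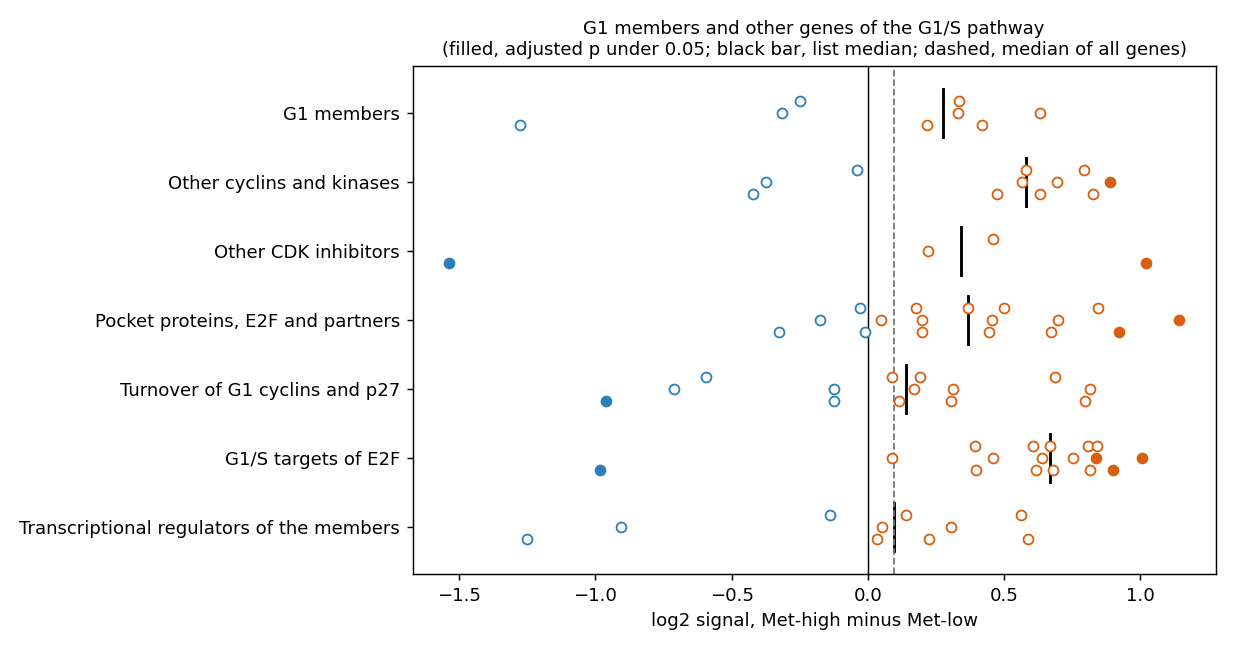
Log2 signal in Met-high minus Met-low for the tested G1 genes and for the other genes of the pathway by list, each point a gene, filled where the adjusted p was under 0.05, orange above 0 and blue below; black bars are list medians and the dashed line is the median of all genes, 0.10. The E2F targets have a median of 0.67 and the G1 genes one of 0.28, with Ccnd2 and Cdkn1a far to the left at -1.28 and -1.54.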

How the data were processed

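Total RNA of 2 Met-low and 2 Met-high preparations was hybridised to one-colour Agilent mouse arrays. The authors deposited scanner output in which each spot has a background-corrected intensity on a linear scale, with flags for outliers, saturation and signal above background. The file headers name Feature Extraction 11.0.1.1 and the labels name 10.7.3.1. The authors also deposited processed log2 values. Set against the scanner intensity, these followed the log2 intensity over the array's 75th percentile, centred on each probe, with slopes of 0.999 to 1.001 and column medians of 0.149, -0.035, 0.0352 and -0.117. They were used as an alternative, and the Lowess step named in the methods could not be seen in them.

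Intensities were floored at 0.01, log2-transformed, and lowered by the log2 of the array's own 75th percentile over spots that are not controls. Flagged outlier spots were dropped (0 of the 24 member spots on any array), and spots of a probe were averaged. Accessions gave symbols for 27427 of 39429 probes through the RefSeq gene table of GRCm38.p6. The array design names another build, so no coordinates are taken from it, and those of the printed promoters are in GRCm38.p6. A gene is represented by its probe of highest mean signal. To be tested, a gene had to exceed background clearly on each array of at least 1 population (11958 genes did). The test was limma's (version 3.58.1, lmFit then eBayes, R 4.3.3), two-sided, Benjamini-Hochberg over all genes, threshold 0.05. The gene-level test was tried on simulated data. A separate fit took every probe. Tables and plots were made with Python 3.11.15, pandas 2.3.3, numpy 2.4.6 and matplotlib 3.10.9.

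All 10 members are described. From each pathway list, genes past the threshold are named (at most 4, by size), or else the 2 with the widest difference. Some genes that these rules gave are counted but not reported by name. Members and lists were chosen with earlier results of these data known, and the promoter motifs and the genes whose promoters are printed were chosen after their values and matches were seen. The study describes the cells behind each array as independently prepared, and the number of arrays limits the precision.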

Additional observations from a re-analysis of the deposited data

How the results depend on the processing

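Over 17 alternative settings, 0 of 136 differences of the G1 genes changed direction, but many of these could not change it. Settings that alter only the filter, the flags or the test keep the log2 difference. Leaving out an array cannot reverse populations that do not overlap. Only normexp, quantile normalization, the detected-probe percentile, the mean of a gene's probes and the authors' processed values could turn a direction. Among the 136 differences, 8 came to pass a threshold. Of these 6 were of Ccnd2, with adjusted p of 0.0339 after normexp background correction, 0.0461 with genes detected on all 4 arrays, 0.0251 with a mean-variance trend, 0.0251 and 0.0158 with an array left out, and 0.00609 with the replicate block. Members called higher in Met-low thus numbered 1 in each of these, and 1 at 2-fold without a test. The methods' t-test, unadjusted, called 1 member higher in Met-high (Ccnd3), 22 list genes higher in Met-high, and 1266 genes higher in Met-high and 945 in Met-low. With Benjamini-Hochberg adjustment it called 1 gene higher in Met-high and 0 in Met-low, with 0 list genes in either direction. Leaving out each array gave 155 to 264 genes higher in Met-high and 437 to 604 in Met-low, 0 to 4 list genes higher in Met-high and 1 to 4 in Met-low, and 0 to 1 members higher in Met-low.

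Genes called numbered 233 higher in Met-high and 457 in Met-low as reported, 140 higher in Met-high with the 75th percentile over detected probes (595 in Met-low), 392 in Met-high with the trend, 92 and 301 with every probe by itself, and 0 and 7 with no filter on dim probes. List genes called higher in Met-high, 7 as reported, were 11 after normexp, 4 after quantile normalization, 1 with the detected-probe percentile, 15 with the trend, 4 with the mean of a gene's probes, 3 past 2-fold with or without the adjusted p, 1 with every probe by itself and 0 without the filter. List genes called higher in Met-low, 3 as reported, were 1 past 2-fold and the adjusted p, 1 with every probe by itself and 0 without the filter. The causes were not tested, except that the fit of every probe and the fit without the filter test more features.

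The labels number the replicates 1 and 2 in each population. Deviations of same-numbered arrays from their population means correlated at 0.54 over 11947 genes, but with 2 pairs and no stated pairing the arrays share only a number. With the replicate block, 1976 genes were called higher in Met-high and 1580 in Met-low, with 35 and 7 list genes, and among the members Cdk2 (adjusted p 0.0296 by limma) and Ccnd2, 1 in each direction. Cdk6 and Cdkn2a stayed too near background for any difference to be detectable.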
